A study of Mus musculus with 8 samples.

Results

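Aquaporins are membrane channels of a shared fold that let water cross lipid bilayers, and the 8 genes described here are Aqp1, Aqp3, Aqp4, Aqp5, Aqp7, Aqp8, Aqp9 and Aqp11. They were measured in mouse liver by 13 probes of 41174 on the array, which stand for 8 of 27962 gene names, and every probe carrying one of these names was taken. The family was chosen by a measured value: Aqp8 was among the largest increases after N-ethyl-N-nitrosourea (ENU) in wild-type liver, so its ENU differences are given as a description, with no test. Of the 13 probes, 12 probes of 7 genes were well above background on both arrays of at least 1 group, and the Aqp5 probe was above background on none of the 8 arrays.

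The livers came from C57BL/6 mice labelled as 6 months old and female. All carried 2 floxed alleles of Dicer1, which encodes the ribonuclease that cuts microRNA precursors. Knockout mice (KO, Albumin-Cre;Dicer1loxP/loxP) also carried Cre recombinase under the albumin promoter, which is active in hepatocytes, and the controls, labelled wild type (WT), were Dicer1loxP/loxP littermates without it. Mice received a single intraperitoneal dose of the alkylating mutagen ENU at 120 mg/kg, or of dimethylsulfoxide as vehicle, in 2 ml/kg. The ENU mice were measured on day 15, and the labels give no day for the vehicle mice. Which liver cells keep Dicer1 was not measured in these bulk samples.

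In the liver, hepatocytes and bile duct cells move water, glycerol and other small solutes across distinct membrane faces, and aquaporins divide this work between them. Classical members pass mainly water: Aqp1 lies in bile duct and endothelial cells and in red cells, Aqp8 in the canalicular membrane and inside hepatocytes, where it can also pass ammonia and hydrogen peroxide, and Aqp4 is best known from astrocytes. Aquaglyceroporins, Aqp3, Aqp7 and Aqp9, also pass glycerol: Aqp7 is the glycerol exit of fat cells and Aqp9 the glycerol entry of hepatocytes. Aqp11 is an unorthodox member of the endoplasmic reticulum, and its loss in mice gives vacuolated kidney and liver cells.

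Each of the 4 groups had 2 arrays, called a and b. Over 156 to 181 probes spotted at least 5 times, the median absolute standardised difference between arrays a and b was 0.673 to 0.880, against 0.688 from spot noise alone and 10.6 to 26.5 between arrays of different groups. The 2 arrays of a group were therefore counted as 1 RNA sample. A comparison of one group with another sets 1 RNA sample against 1 and carries no test. The SD given beside a level is that of the 2 arrays of a group and covers array error only. The labels do not tell how many mice a sample represents. The genotype fit over the 4 samples takes its error from how far KO minus WT differs between vehicle and ENU mice. limma draws that error toward a value common to all probes. A p-value thus measures no spread between mice, and the differences behind it may be technical. A genotype difference that is unlike in the 2 treatments can fail the test for that reason. The share of spots well above background ran from 54.7% to 69.3%, and none was saturated. The vehicle arrays shared a slide and scan and the ENU arrays another, so that an effect of the slide and one of ENU cannot be told apart. On each slide KO took positions 1 and 2 and WT positions 3 and 4, and position cannot be told apart from genotype.

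The labels were checked against the targeted gene and against sex-linked genes. Of 2 Dicer1 probes, the one at chr12:102186776-102188847 on mm7 was lower in KO, with a log2 level of -1.81 in WT vehicle and -2.45 after ENU in WT, and of -4.24 and -3.94 in the same KO groups (limma, adjusted p = 0.0193). The other, at chr12:102216485-102216544, stood at 1.17, 0.48, 0.71 and 0.25 in the same order (adjusted p = 0.231). Whether either probe lies in the deleted part is not given in the sources used here. The Y-linked genes Ddx3y, Eif2s3y, Kdm5d and Uty were well above background on all 8 arrays, 4 of 4, although the mice are labelled female. For the X-linked Xist, the probe at chrX:98788309-98788368 was above background on 3 of the 8 arrays and the other probes on none.

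Levels below are log2 processed signals minus the array's 75th percentile, so that 0 is the signal of that percentile, and they compare samples for one probe and not one probe with another. In bulk liver, fewer cells of a type and less RNA per cell cannot be told apart.

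The stretches of 250 bases before the transcription start of Aqp8, Aqp3 and Aqp7 are shown because Aqp8 had the largest difference after ENU and because Aqp3 and Aqp7, which lie next to each other on chromosome 4, were both higher in KO. They are read 5′ to 3′ on the strand of the gene, from RefSeq on GRCm38.p6, and capitals mark matches to the motifs listed after them. Aqp8 is at chr7:123462044-123462293, forward strand. Aqp3 is at chr4:41098184-41098433, reverse strand. The more upstream of 2 listed Aqp7 starts gives chr4:41048137-41048386, reverse strand.
Aqp8: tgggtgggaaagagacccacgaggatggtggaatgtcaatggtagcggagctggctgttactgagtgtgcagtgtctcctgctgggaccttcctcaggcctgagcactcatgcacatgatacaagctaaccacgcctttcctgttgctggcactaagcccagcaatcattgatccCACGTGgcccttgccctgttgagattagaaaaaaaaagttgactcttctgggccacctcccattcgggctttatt
Aqp3: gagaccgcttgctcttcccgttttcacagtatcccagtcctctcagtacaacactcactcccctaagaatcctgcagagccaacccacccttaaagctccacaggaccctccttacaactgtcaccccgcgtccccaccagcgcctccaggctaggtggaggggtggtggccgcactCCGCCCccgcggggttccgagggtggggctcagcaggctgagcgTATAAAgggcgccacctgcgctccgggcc
Aqp7: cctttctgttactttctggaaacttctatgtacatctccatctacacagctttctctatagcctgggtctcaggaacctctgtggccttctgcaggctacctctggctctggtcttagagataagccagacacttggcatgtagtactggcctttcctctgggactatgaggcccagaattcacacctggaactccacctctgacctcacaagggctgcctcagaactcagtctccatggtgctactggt

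The motifs were searched on both strands, and their shares are those among the stretches before all 32851 starts of the same table. The palindromic E-box CACGTG was present in 6.02% of all starts, and in Aqp8 it began 75 bases before the start. The TATA box TATAAA was present in 12.4%, and in Aqp3 it began 29 bases before the start. The GC box GGGCGG was present in 32.7%, and in Aqp3 it began 73 bases before the start. The Aqp7 stretch held none of the motifs. Also searched were the CCAAT box CCAAT (33.8% of starts), the AP-1 motif TGANTCA (6.75%), the FOXA motif TGTTTAC (3.17%) and the D-box TTATGTAA (0.819%), with no match in these 3 stretches. No motif overlapped another in them. A match describes letters in a window and is not a measured binding site.

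Aqp8, the water channel of the bile canaliculus, was high in WT liver after ENU and much lower in the other groups. Its probe lies at chr7:119570588-119570647 on mm7. The level was 3.40 and 3.34 in the WT vehicle arrays, 6.45 and 6.45 in the WT ENU arrays, 3.47 and 3.43 in the KO vehicle arrays, and 3.90 and 3.88 in the KO ENU arrays. The 2 WT ENU arrays stood alone at the top, the vehicle arrays of both genotypes lay within 0.13 of each other, and the KO ENU arrays were above all vehicle arrays. In linear processed signal the WT means were 4401 on vehicle and 43201 after ENU, and the KO means 6724 and 9488.

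After ENU, Aqp8 was higher by 3.08 ± 0.04 log2 units in WT (8.45-fold), the 44th largest increase of 27231 probes, and this value chose the family. In KO it was higher by 0.44 ± 0.03 (1.36-fold), the 5160th. The difference between these differences was -2.64, a value that contains the 3.08 by which the family was chosen. It was at or below this value for 124 probes. Of 1990 probes over 2-fold higher after ENU in WT, 1466 (73.7%) were not over 2-fold higher in KO. Of all probes, 4.61% were over 2-fold higher after ENU in KO. The 1990 probes were picked for their WT difference, which favours a smaller one in KO. Nothing is therefore read from the 73.7%. Within vehicle mice KO and WT differed by 0.08 ± 0.05, and within ENU mice KO was lower by 2.56 log2 units (5.91-fold). The average over both treatments, -1.24, includes the WT ENU level that chose the family, so it is a description and no test is given. In vehicle mice the sign depended on the scaling, with values of -0.17 after median centring and 0.46 after quantile normalization.

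**Figure D1:**
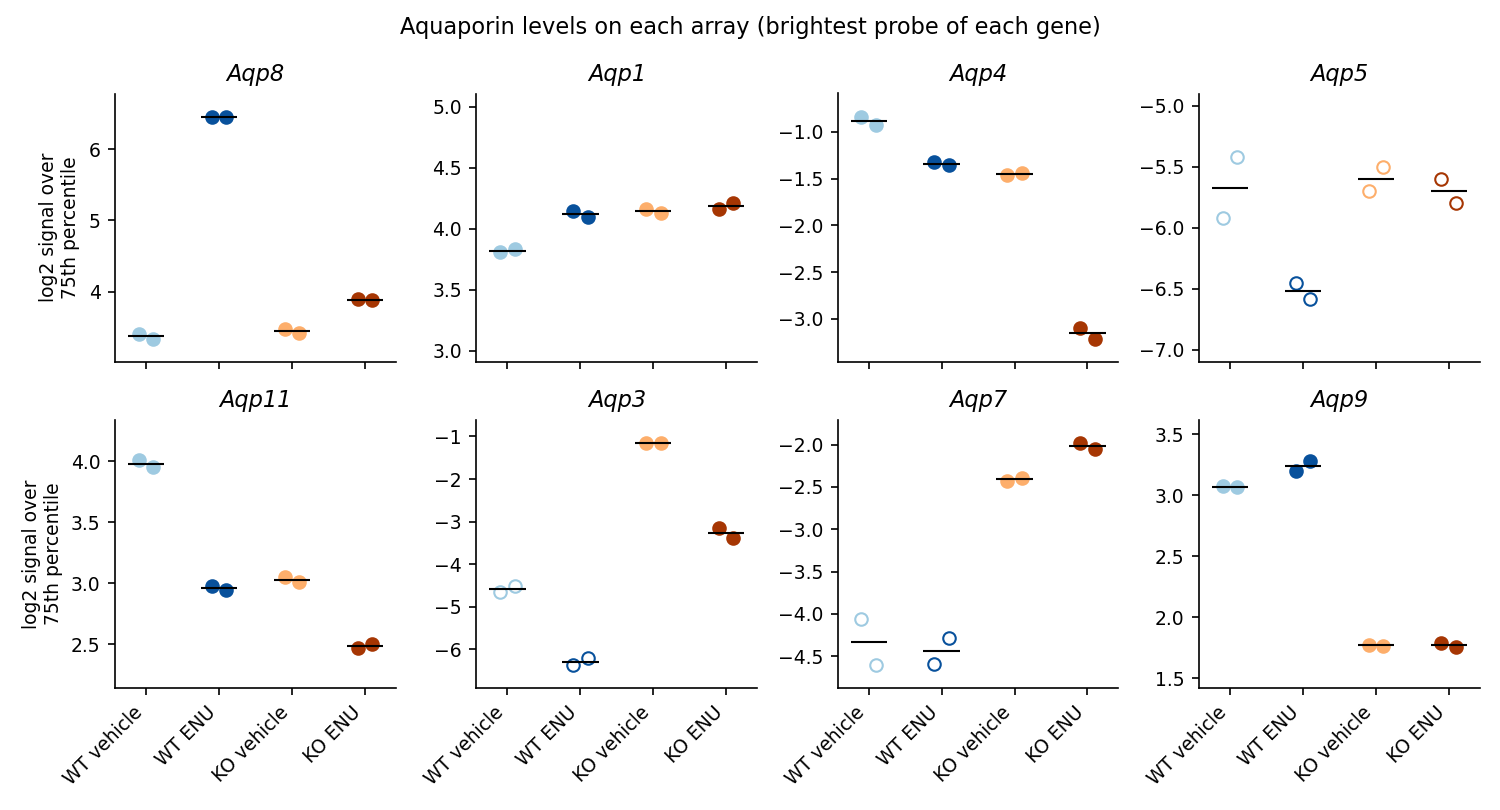
Log2 level (signal over the array's 75th percentile, y axis, scaled separately per gene) of the brightest probe of each aquaporin in the 4 groups (x axis). Circles are arrays a and b, bars are group means, and hollow circles mark groups where fewer than 2 arrays were well above background. Aqp8 is highest in WT ENU at 6.45, Aqp3 and Aqp7 are high in the KO groups, and Aqp9 is low in both KO groups at 1.77.

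The profile of 5 genes lay nearest to that of Aqp8 over the 4 group means, by the root mean square difference of centred log2 values. They were Xlr3c (0.18 log2 units), Hpse, which encodes heparanase (0.19), Pstpip2, a regulator of macrophage actin (0.22), Serpina7, the thyroxine-binding globulin (0.24), and Camk1d, a calcium-dependent kinase (0.28). After ENU in WT they were higher by 3.34, 3.53, 2.97, 2.56 and 2.47 log2 units in that order. In KO the same differences were 0.45, 0.50, 1.06, 0.02 and -0.03. Likeness was measured over only 4 values per gene, and these genes were picked for it.

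**Figure D2:**
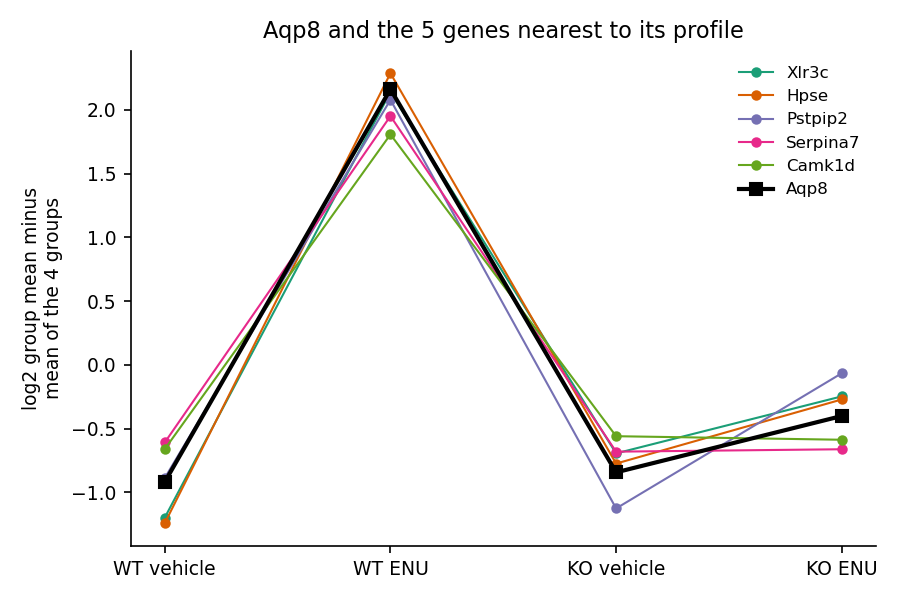
Centred log2 group means (y axis: group mean minus the mean of the 4 groups) of Aqp8, black squares, and of the 5 genes nearest to it, coloured circles, in the 4 groups (x axis). All 6 profiles peak in WT ENU, where Aqp8 exceeds its WT vehicle level by 3.08.

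Aqp1, the water channel of bile duct cells, endothelium and red cells, varied least. Its probe lies at chr6:55311856-55311915 on mm7. Levels were 3.81 and 3.83 in WT vehicle, 4.15 and 4.10 in WT ENU, 4.17 and 4.13 in KO vehicle, and 4.17 and 4.21 in KO ENU. The WT vehicle arrays were the lowest, and the other 6 arrays lay within 0.12 of each other. ENU minus vehicle was 0.30 ± 0.04 in WT and 0.04 ± 0.04 in KO. KO minus WT averaged 0.20 ± 0.20 (SE), with a 95% interval of -0.34 to 0.74, and did not pass the test (limma, adjusted p = 0.477). Median centring gave -0.022 and quantile normalization 0.68, so its direction depends on the scaling.

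Markers of cells that carry Aqp1 did not move alike. Their counts stand beside all-probe shares of 16.1% called higher in KO and 13.3% lower. Of the cholangiocyte list, 7 of 8 tested genes were called higher in KO, 1 of them kept only through the KO groups, and none fell, with Spp1, a secreted phosphoprotein, up by 3.29 and Sox9, a biliary transcription factor, by 1.95. The summed signal of that list, in units of the 75th percentile, was 6.92 and 9.48 in WT without and with ENU, and 69.4 and 67.7 in KO. The secretin receptor Sctr, the chloride channel Cftr and Muc1, also on that list, were well above background on none of the 8 arrays. They were so in WT as in KO, and their probes tell nothing of a difference between genotypes. Of 10 endothelial genes none passed the test, with sums of 67.6, 79.1, 50.8 and 49.5 in the same order, and Clec4g and Ptprb as the brightest. After median centring, and also with normexp, 5 of these 10 were called lower. Of 6 erythroid genes tested, 1 rose and 2 fell, and the sums were 501, 328, 159 and 214, with Hbb-b1 and Hba-a1 as the brightest. Epb42, of the red cell membrane skeleton, was at background on all arrays. The part of these cell types in the Aqp1 level was not tested.

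Aqp4, the water channel of astrocyte endfeet, was dim, and 1 of its probes fell in KO. It was measured by 3 probes on chromosome 18. On the brightest, levels were -0.84 and -0.93 in WT vehicle, -1.32 and -1.36 in WT ENU, -1.46 and -1.44 in KO vehicle, and -3.10 and -3.21 in KO ENU. The KO ENU arrays stood far below the rest. The second probe had the same order of groups, with means of -2.61, -2.81, -3.26 and -4.62, and the third had means of -2.73, -3.00, -3.74 and -4.18.

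The 3 Aqp4 probes differed on the size of the ENU difference. In KO it was -1.71, -1.36 and -0.44 on probes 1, 2 and 3, and in WT it was -0.46, -0.20 and -0.27. KO minus WT averaged -1.19 ± 0.36 (SE) on the first, with an adjusted p of 0.0739 from limma. It was -1.24 ± 0.34 on the second (adjusted p = 0.0623) and -1.10 ± 0.19 on the third (adjusted p = 0.0245), which passed. The mean of the 3 probes fell by 1.18 (limma, adjusted p = 0.0497 over genes), and the brightest probe passed after median centring with -1.41 (adjusted p = 0.0380).

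Aqp11, the endoplasmic reticulum member, was lower after ENU in both genotypes and highest in WT vehicle. Its probe lies at chr7:93757914-93757973 on mm7. Levels were 4.01 and 3.95 in WT vehicle, 2.98 and 2.95 in WT ENU, 3.05 and 3.01 in KO vehicle, and 2.47 and 2.51 in KO ENU. WT ENU and KO vehicle were close to each other. ENU minus vehicle was -1.02 ± 0.04 in WT (2.02-fold lower) and -0.54 ± 0.03 in KO (1.46-fold lower). KO minus WT was -0.95 in vehicle mice and -0.47 in ENU mice. The average, -0.71 ± 0.22 (SE) with a 95% interval of -1.31 to -0.11, did not pass after adjustment over all probes (limma, adjusted p = 0.0779). It passed after median centring with -0.93 (adjusted p = 0.0382) and with normexp background correction at -0.65 (adjusted p = 0.0473), and not after quantile normalization at -0.38 (adjusted p = 0.228).

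Among the profiles nearest to Aqp11 were those of Atg14, an autophagy factor (0.01 log2 units), Pck1, the gluconeogenic phosphoenolpyruvate carboxykinase (0.03), Zfp715 (0.03) and Nanp (0.03). Pck1 belongs to the glycerol list as well, with differences after ENU of -1.11 in WT and -0.54 in KO. Nearest to the brightest Aqp4 probe were Pinx1 (0.06), Utf1 (0.08), Hs6st3 (0.09), Fmr1nb (0.10) and Caln1 (0.10).

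Aqp3, an aquaglyceroporin best known from skin and collecting duct, was well above background in KO livers and at background in WT. Its probe lies at chr4:41231392-41231451 on mm7. Levels were -1.16 and -1.16 in KO vehicle and -3.15 and -3.38 in KO ENU. In WT the probe was not well above background on any of the 4 arrays, with -4.66 and -4.51 in vehicle and -6.37 and -6.22 after ENU. In linear signal these were 276 in KO vehicle and 66.7 in KO ENU, against 17.7 and 6.3 in WT. Both KO groups were above both WT groups.

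Because the WT signal was at background, the folds are bounds: they set the bright group's mean against, on each dim array, the higher of the lowest signal above background and the probe's own. Aqp3 was at least 7.68-fold higher in KO than in WT in vehicle mice and at least 2.71-fold higher in ENU mice. Averaged over both treatments it was called higher in KO (limma, adjusted p = 0.00805). The probe passed the filter through the KO groups alone, which favours that direction, so the call is not independent support. Since the fit sets KO against signals at background, no estimate is given as a size. With normexp background correction, whose offset of 50 shrinks differences of dim probes, the call was lost (adjusted p = 0.0543). In KO, ENU minus vehicle was -2.10 ± 0.16 log2 units for Aqp3 (4.29-fold lower). For WT no fold is given, since both groups were at background. Genes with the nearest profile were Lrtm2 (0.34), Htra3, a serine protease (0.36), Mmp7, matrilysin (0.45), Bmper (0.45) and Auts2 (0.46). All were farther away than those of the other members described here. The WT values in the Aqp3 profile were at background, so nothing is read from this likeness.

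Aqp7, the glycerol channel of fat cells, was also high in KO and near background in WT. It was measured by 2 probes at chr4:41172651-41172710 and chr4:41172673-41172732 on mm7, which share 38 bases and are not independent. On the first, levels were -2.43 and -2.39 in KO vehicle and -1.98 and -2.06 in KO ENU. The WT levels were -4.06 and -4.60 in vehicle and -4.60 and -4.29 after ENU, with 1 of these 4 arrays well above background. On the second probe the KO levels were -2.78 and -2.90 in vehicle and -2.33 and -2.31 after ENU, and no WT array was above background. On both probes the KO groups were above the WT groups.

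In vehicle mice the KO level of Aqp7 exceeded that of WT at least 3.23-fold by the first probe and at least 2.39-fold by the second. In ENU mice the first gave a measured 5.35-fold, with 1 of 2 WT ENU arrays above background, so the WT level behind it lay partly at background. The second gave at least 5.21-fold. Averaged over both treatments both probes were called higher in KO (limma, adjusted p = 0.0112 and 0.00789), again with no size given. Both passed the filter through the KO groups alone, which favours that direction, so these calls are not independent support either. With normexp both kept their call (adjusted p = 0.0315 and 0.0204). After ENU in KO the probes were higher by 0.39 ± 0.06 and 0.53 ± 0.09, where Aqp3 was lower. The nearest profiles were those of Chst11, a chondroitin sulfotransferase (0.04), Clcn5, a chloride transporter (0.05), Vcan, the matrix proteoglycan versican (0.07), Slc27a3 (0.07) and Ccn1, a matricellular protein (0.07). The WT values in the Aqp7 profile lay mostly at background, so nothing is read from this likeness.

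The Aqp3 and the second Aqp7 probe were kept only through the KO groups, and the first Aqp7 probe was above background on both arrays of a group only in KO. Passing the filter through KO alone favours a higher KO value, and the calls are to be read with this. Adipocyte markers are given beside Aqp7. Of 4 tested, Cidec rose in KO and Fabp4 did not pass. Slc2a4, above background only in KO, was called higher, and Cfd, above background only in WT, was called lower. Adipoq, Plin1 and Lep, also on the adipocyte list, were above background on none of the 8 arrays, in WT as in KO, and Retn on 1. Their probes tell nothing of a difference between genotypes. The summed signal of that list was 19.5 on vehicle and 4.81 after ENU in WT, and 50.2 and 5.53 in KO, with Cidec, a lipid droplet protein, as the brightest member and Fabp4 next.

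In the RefSeq gene order Aqp7 and Aqp3 are adjacent, and 58659 bases separate the probes of the 2 genes on mm7. The protein-coding genes that flank the pair did not pass the test. Nfx1, on the Aqp7 side, averaged -0.59 ± 0.19 (SE; limma, adjusted p = 0.0814), and Nol6, on the Aqp3 side, -0.28 ± 0.21 (adjusted p = 0.343). The neighbours were looked up after the levels of Aqp3 and Aqp7 had been seen.

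Aqp9, the hepatocyte glycerol channel, fell in KO on all 3 of its probes. They lie on chromosome 9 of mm7, the first at chr9:71145729-71145788 and the third at chr9:71167045-71167104. The second covers chr9:71146729-71157193, a genomic span of 10465 bases, and so crosses at least 1 intron. On the brightest, levels were 3.07 and 3.07 in WT vehicle, 3.20 and 3.28 in WT ENU, 1.77 and 1.77 in KO vehicle, and 1.79 and 1.76 in KO ENU. Both KO groups were below both WT groups, and the KO arrays with and without ENU overlapped.

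The average KO minus WT of Aqp9 was -1.38 ± 0.19 (SE) on the first probe (limma, adjusted p = 0.0165), -1.20 ± 0.19 on the second (adjusted p = 0.0217) and -1.39 ± 0.19 on the third (adjusted p = 0.0167). These equal folds of 2.61, 2.30 and 2.63 lower. The call held with normexp, quantile normalization and median centring on each of the 3 probes. Within vehicle mice the first probe gave 2.46-fold lower and within ENU mice 2.76-fold lower. ENU minus vehicle was 0.17 ± 0.06 in WT and 0.00 ± 0.02 in KO on this probe, and at most 0.52 on the others. Nearest in profile were C1s1, a complement protease made in liver (0.01), Bet1 (0.02), Borcs5 (0.02), Mfsd3 (0.04) and Polg2 (0.04).

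**Figure D3:**
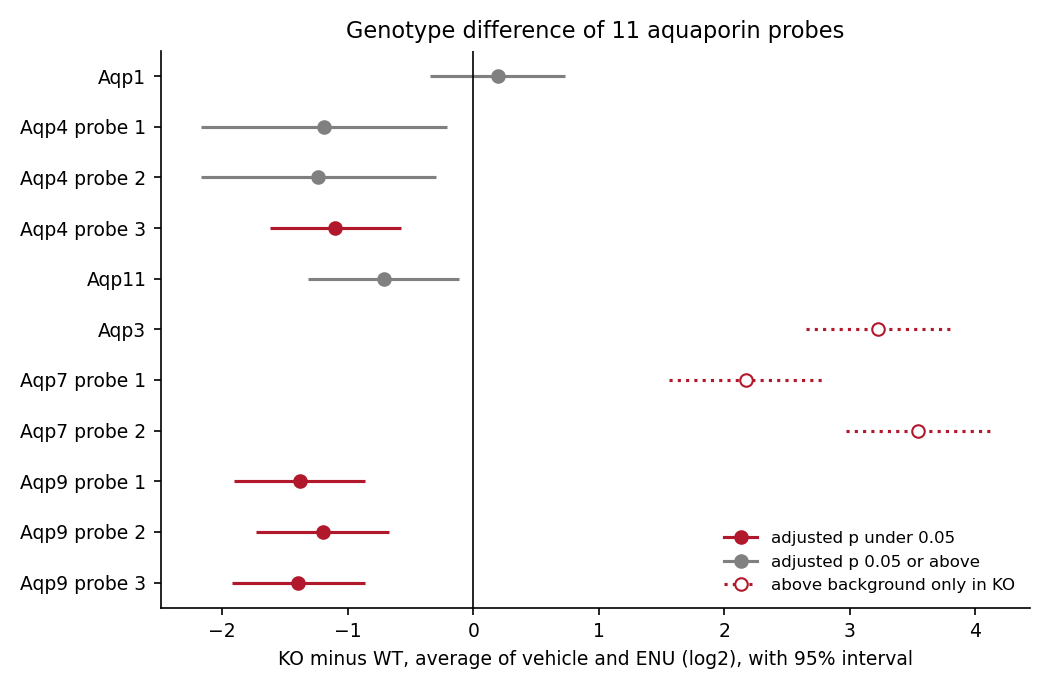
KO minus WT on the log2 scale, averaged over vehicle and ENU (x axis), for the 11 probes of the tested aquaporins other than Aqp8 (y axis). Points are limma estimates over 4 RNA samples, lines are 95% intervals, and red marks an adjusted p under 0.05. Hollow points with dotted lines (Aqp3 and Aqp7) are probes above background on both arrays of a group only in KO, whose estimates are not sizes. Aqp9 lies to the left at -1.39 to -1.20.

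Of the 11 probes of the 6 genes other than Aqp8, 3 were called higher in KO and 4 lower, and 4 did not pass. The 3 called higher were all kept only through the KO groups. Among all 27231 probes, 16.1% were called higher and 13.3% lower, 29.4% in either direction. By the brightest probe, 2 genes were called higher (Aqp3 and Aqp7), 1 fell (Aqp9) and 3 did not pass (Aqp1, Aqp4 and Aqp11). The median over all probes was -0.09, and it was -0.30 after median centring and -0.19 with normexp. Of all calls 54.6% were higher in KO in the main scaling, with 4374 higher and 3633 lower. Median centring gave 36.3% (3876 higher, 6795 lower) and normexp 36.1%. The directions of Aqp3, Aqp7, Aqp9, Aqp4 and Aqp11 in this comparison were the same in each of these scalings and after quantile normalization, and that of Aqp1 was not.

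**Figure D4:**
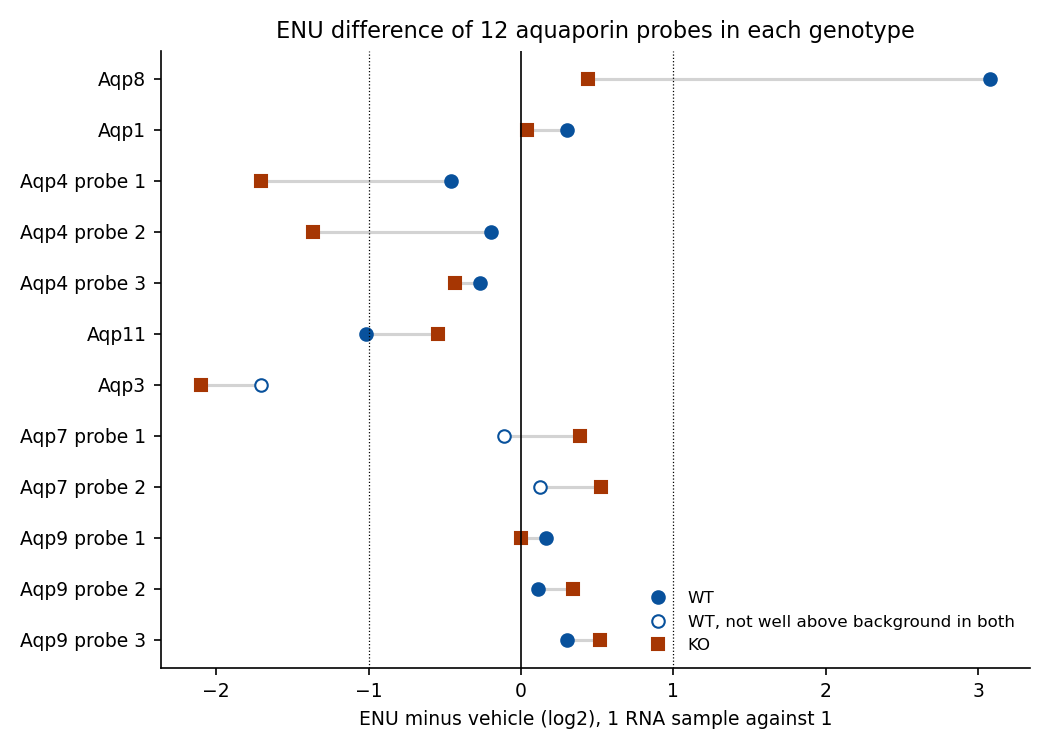
ENU minus vehicle on the log2 scale (x axis) in WT (blue circles, hollow where fewer than 2 arrays of both WT groups were well above background) and KO (brown squares) for 12 aquaporin probes (y axis). Each point compares 1 RNA sample with 1, and dotted lines mark 2-fold. Among these probes Aqp8 differs most between genotypes, with 3.08 in WT, the value that chose the family, and 0.44 in KO.

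For ENU against vehicle, by the brightest probe, 1 of 6 genes was over 2-fold higher in WT (Aqp8) and 1 was over 2-fold lower (Aqp11). Aqp3, at background in both WT groups, was not counted. Of all probes, 7.31% were over 2-fold higher and 5.29% over 2-fold lower in WT. In KO none of the 7 genes was over 2-fold higher and 2 were over 2-fold lower (Aqp3 and Aqp4), beside 4.61% and 4.95% of all probes. Since the WT comparison chose the family, nothing is read from the ENU counts in WT. Within vehicle mice, 2 of the 7 genes were over 2-fold higher in KO than in WT (Aqp3 and Aqp7) and 1 was over 2-fold lower (Aqp9), beside 16.3% and 9.82% of all probes. Within ENU mice the counts were 2 (the same genes) and 3 (Aqp4, Aqp8 and Aqp9), beside 15.7% and 12.6%. Aqp3 and Aqp7 passed the filter through the KO groups alone, which favours a higher KO value. Nothing is therefore read from the counts of genes higher in KO. Aqp8 enters the count of 3 through the WT ENU level that chose the family, so nothing is read from that count.

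Aqp5, a water channel of lung and salivary gland, had levels between -6.58 and -5.42 on the 8 arrays, all at background, so no fold is given. Of the other family members on the array, Aqp2, the vasopressin-regulated channel of the collecting duct, fell in KO by 0.87 ± 0.20 (SE; limma, adjusted p = 0.0412), with levels of -0.73 and -1.30 in WT without and with ENU, and -1.72 and -2.04 in KO. Aqp6, Aqp12 and Mip were above background on none of the 8 arrays. Umod, Slc12a1, Slc12a3 and Slc34a1, markers of kidney tubule cells, were likewise at background, and Kap, of the same list, was above it on 2 of the 8 arrays.

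Genes of bile formation and canalicular transport are given beside Aqp8. Of 12 bile formation genes tested, 2 were called higher and 4 lower in KO, with a median of -0.28 beside -0.09 over all probes. The shares called among all probes were 16.1% higher and 13.3% lower. The count of higher calls is near its share, and nothing is read from it. Slc51b, a subunit of the basolateral bile acid exporter, was called higher (limma, adjusted p = 0.0227). It was at background in WT vehicle mice and above it on the other 6 arrays, so no size is given. Abcb1a, a drug efflux pump, was called higher too (limma, adjusted p = 0.0163). It was above background on the 4 KO arrays alone, and a filter passed in that way favours a higher KO value. Slco1b2, a sinusoidal anion uptake carrier, fell by 2.21, and Slc10a1, the sodium-coupled bile acid uptake carrier, fell by 2.07.

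Of 11 glycerol genes, which act on the solute that Aqp3, Aqp7 and Aqp9 carry, 1 rose, 2 fell and 8 did not pass, with a median of -0.62. Among all probes 16.1% were called higher in KO and 13.3% lower, and nothing is read from counts near these shares. Lpl, lipoprotein lipase, rose by 2.12 ± 0.25 (SE; limma, adjusted p = 0.0133). Mgll, monoglyceride lipase, fell by 2.09, and Agpat2, an acyltransferase of glycerolipid synthesis, fell by 1.26. Median centring gave 7 lower calls in this list and normexp 6.

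Of 10 genes of ammonia and urea handling, 1 rose and 6 fell, with a median of -0.94. Here and for the other lists of this paragraph, the all-probe shares were 16.1% called higher and 13.3% lower. The urea transporter Slc14a1 rose (limma, adjusted p = 0.0148), and no size is given since it was at background in WT vehicle mice and above it on the other 6 arrays. The urea cycle enzyme Otc fell by 1.69 and the ammonia transporter Rhbg by 1.47. Of 14 genes of hydrogen peroxide handling none rose and 8 fell, with a median of -0.89. Nox4, an oxidase that makes hydrogen peroxide, fell by 3.73 ± 0.51 (SE; limma, adjusted p = 0.0162), with 7 of 8 arrays above background, and catalase, Cat, by 1.84. After quantile normalization 2 of the 10 and 2 of the 14 were called lower. Of 11 hepatic transcription factors and hormone receptors none rose and 3 fell: Ghr, the growth hormone receptor, by 2.68, Ppara, the fatty acid sensor, by 1.73, and Gcgr, the glucagon receptor, by 1.17. Median centring called 8 of these 11 lower.

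For the cell type and organ lists that follow, the all-probe shares were 16.1% called higher in KO and 13.3% lower. All 9 hepatocyte genes with a probe were well above background on the 8 arrays, with Alb and Ahsg as the brightest. Of these 9, 6 fell in KO and none rose (3 fell after quantile normalization), and their summed signal was 3458 and 3124 in WT without and with ENU, and 1932 and 1752 in KO. Aqp9 and the hepatocyte list were thus both lower in KO, and the part of the hepatocyte level in the Aqp9 result was not tested. All 10 neutrophil genes tested were called higher in KO, 4 of them above background on both arrays of a group only in KO, which favours that direction. The list had sums of 4.80, 7.54, 38.2 and 52.8, and S100a9 and S100a8 as the brightest. Of 10 macrophage genes 5 rose, with sums of 80.2, 130, 187 and 343 and Lyz2 and Cd5l as the brightest. Of 10 stellate cell genes 4 rose, with sums of 81.2, 90.3, 172 and 179 and Dcn and Col3a1 as the brightest. These sums moved with Aqp3 and Aqp7 between genotypes, and their part in those results was not tested.

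Markers of other organs are given beside Aqp8, which is also high in pancreas and colon. Of 8 pancreatic acinar genes tested 1 was called higher and 1 lower in KO, the first kept only through KO groups and the second only through WT groups. Their summed signal was 1.32 and 1.37 in WT without and with ENU, and 1.18 and 0.87 in KO, with Ctrb1 and Cel as the brightest, and Pnlip, pancreatic lipase, was at background on all arrays. Of 5 colon genes tested 2 were called higher in KO, 1 of them kept only through KO groups, and 2 fell, with sums of 63.3, 64.4, 48.8 and 45.5, Fabp2 and Krt20 as the brightest, and Cdx2 and Muc2 at background on all arrays. Of 4 lung genes 1, kept only through KO groups, was called higher, with sums of 0.50, 0.28, 0.84 and 1.12 and Sftpd and Sftpa1 as the brightest, and Sftpc and Sftpb were at background on all arrays.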

How the data were processed

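The members and all gene lists were chosen with earlier results of these data known. The deposited intensity values are background-corrected processed signals of Agilent's Feature Extraction program, version 10.7.1.1 per the file headers and 10.5.1 per the submitters' processing notes. Probe positions are those of the files (mm7, NCBI35). Gene names came from RefSeq (GRCm38.p6) for 22951 probes through their accession, for 6659 through the symbol and for 3109 through a synonym, and 8455 kept the deposited name.

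Non-control spots not marked as outliers were averaged per probe, and each array's 75th percentile was subtracted on the log2 scale. Of 41174 probes, 27231 were well above background on both arrays of at least 1 group and were tested with limma 3.58.1 (R 4.3.3) over 4 RNA samples, additive in genotype and treatment, with 1 residual degree of freedom, Benjamini-Hochberg adjustment over all probes and calls under 0.05. The script was tested on simulated data. The number of arrays limits the precision.

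Named were all member probes, in each pathway list the 2 largest rises and falls among those called, in each cell type list the 2 brightest genes, and the 5 nearest profiles of members spanning over 1 log2 unit. A gene near Aqp11 in profile and some markers are not reported here. Markers at background, the adipocyte calls, Gcgr and the neighbouring genes were named after their values were seen. Letters a and b did not pair arrays across groups (correlations of -0.03 to 0.10). Alternatives were normexp (offset 50), quantile normalization, median centring, 2 other filters, the mean of a gene's probes, an intensity trend, each array left out, and a replicate block.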

Additional observations from a re-analysis of the deposited data

How the results depend on the processing

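Depth of signal limits Aqp3, Aqp7 and Aqp5, whose WT levels lay at background but for 1 array of the first Aqp7 probe. With normexp, Aqp3 in KO minus WT was 1.02 and lost its call, while Aqp4 (-0.90) and Aqp11 (-0.65) passed. There, 5648 probes were called lower. KO minus WT in vehicle mice had 1787 probes over 2-fold higher and 1628 lower, and 1918 were higher in ENU mice. ENU minus vehicle had 559 higher and 647 lower in WT, and 407 and 536 in KO. With median centring, 6795 probes were called lower, 4639 were over 2-fold lower in vehicle mice, Aqp1 was -0.022, and Aqp4 (-1.41) and Aqp11 (-0.93) passed.

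Without a filter on dim probes, 5185 were over 2-fold lower in KO in ENU mice, and 2462 in WT and 2920 in KO were lower after ENU. With probes above background on all 8 arrays, Aqp3 and Aqp7 drop out, 2869 were called higher, 2096 were over 2-fold higher in KO in vehicle mice and 1955 in ENU mice, and ENU minus vehicle had 1034 higher and 955 lower in WT, and 518 and 784 in KO. Aqp4 (-1.19) and Aqp11 (-0.71) passed there, and also with the intensity trend and with the replicate block of 8 arrays, which called 7389 lower. As the letters do not pair the arrays, the block shows array error only. With the mean of a gene's probes Aqp4 was -1.18 and passed, and 1303 genes were higher and 924 lower after ENU in WT, and 804 higher in KO. The cause of these shifts was not tested.

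Leaving out each array in turn gave 2317 to 3097 probes called lower and 3554 to 4044 called higher; the lowest counts of lower calls, 2409 and 2317, came without array b of WT ENU and of KO ENU. None of the 11 tested probes of members other than Aqp8 changed its call or direction in KO minus WT when 1 array was left out. As arrays a and b of a group differ by about as much as spot noise, this leaves nearly the same group means. It covers array error only. Aqp9 kept its call in each setting, at -1.60 to -1.14.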
